A study of Mus musculus with 2 samples.

Results

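The inflammasome genes examined here were 8 genes chosen by name, the sensors Nlrp3, Nlrc4 and Aim2, the kinase gene Nek7, the adaptor gene Pycard, the caspase genes Casp1 and Casp4, and the gasdermin gene Gsdmd. They were found through the RefSeq transcript identifiers of the array's probes and had 10 probes in 19 spots per array, out of 39429 non-control probes in 43020 spots, of which 27234 probes could be named. RNA came from M-MDSCs (monocytic myeloid-derived suppressor cells, immature monocyte-like cells that suppress T cells) taken from tumours of female BABL/c mice, as the labels spell the strain. Every mouse had been starved for 1 day, then given 1000000 4T1 cells, a mammary carcinoma line, under the skin of the left armpit. The NSD group received chow with 0.4% NaCl and tap water for 16 days, and the HSD group chow with 4% NaCl and water with 1% NaCl for the same time. The sample labels give no age. Cells were isolated with magnetic beads and mixed in equal numbers within a diet, so each group was 1 pool on 1 array. The spread between mice could therefore not be measured, and no difference between the diets could be tested or checked in a replicate. In such pools, fewer cells that express a gene and less RNA per cell cannot be told apart.

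Inflammasomes are cytosolic protein complexes that turn the detection of microbes or damage into inflammatory cell death. A sensor protein recruits the adaptor ASC (encoded by Pycard), which gathers and activates caspase-1. Caspase-1 then matures the cytokines IL-1β and IL-18 and cleaves gasdermin D, whose fragment opens pores in the cell membrane (pyroptosis). Mouse caspase-11, encoded by Casp4, binds cytosolic lipopolysaccharide and cleaves gasdermin D directly. In monocytes and macrophages, many of these genes are known to be induced by Toll-like receptor signals or by interferons before the complex is activated.

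Nlrc4 was the only one of the 8 genes that differed by at least 1.5-fold between the diets, and it was 3.69-fold higher in the HSD group. The other 7 genes had log2 fold changes (HSD value minus NSD value, after scaling each array on its 75th percentile) between −0.36 and 0.19. Of the 10 probes, 1 passed 1.5-fold upward and 0 passed it downward. The background is 10.2% upward and 8.91% downward by the same limit, over the 29628 probes that the scanner software marked as well above background for either diet. The member count is thus close to the background, and it is not a result about the group of genes. With a 2-fold limit the Nlrc4 probe was still the single one past it, against 2.68% of all probes upward and 3.51% downward. Every member probe was detected above background for both diets, with no spot flagged or saturated.

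**Figure D1:**
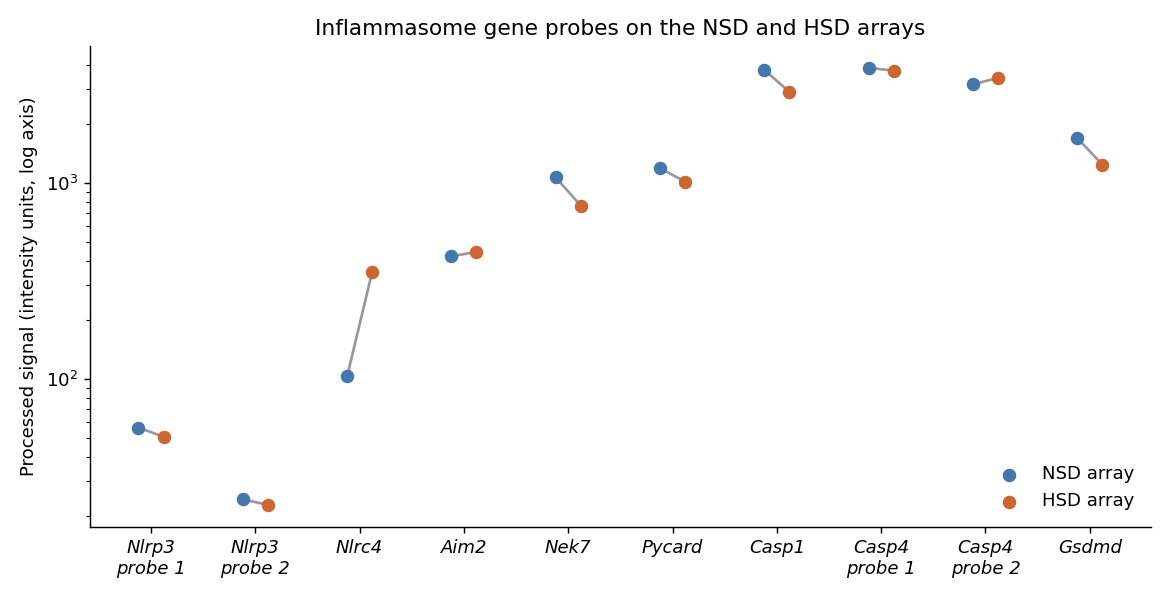
Processed signal in intensity units (log axis, before scaling between arrays) of the 10 probes of the 8 inflammasome genes. Blue points are the NSD array, orange points the HSD array, and a grey line joins the values of a probe. Nlrc4 went from 103 to 350 units, while the other probes differ far less between the arrays. Signals of different probes are not comparable with each other.

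NLRC4 is the sensor platform that responds, through NAIP proteins, to bacterial flagellin and secretion-system proteins. Its probe (A_52_P655136) had a signal of 103 intensity units under NSD and 350 under HSD, with error estimates by the scanner software of 10.3 and 35.0 units for these single spots. The HSD signal was 3.41-fold the NSD signal before any scaling, and the log2 fold change after scaling was 1.88. Among the 27236 probes detected for both diets, 68 (0.250%) had a log2 fold change at or above this value. Nlrc4 was measured by 1 probe in 1 spot per array, so no second probe bears on it. For 127 probes printed in several spots, with a mean signal in or within 2-fold of the range of Nlrc4, the median SD between spots of an array was 0.068 and the largest difference between any of their spots was 0.88 on the log2 scale. The Nlrc4 difference was thus larger than any spot difference of these 127 probes. Over all 294 such probes, whatever their signal above background, the largest spot difference was 1.84, close to the Nlrc4 value of 1.88. Spot differences describe repeat spots of 1 hybridisation and say nothing of variation among animals. The Nlrc4 log2 fold change was between 1.84 and 1.94 under 7 of the 8 alternatives and 1.47 after normexp background correction. Some of these 7 could hardly move it. With 1 probe in 1 unflagged spot, the median over probes changed nothing. Keeping flagged spots and the other scalings only shifted it by a constant of the arrays. In the deposited log2 values Nlrc4 stood at 6.57 (NSD) and 8.51 (HSD).

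The promoter of Nlrc4 is shown because this gene alone passed 1.5-fold, and those of Casp4 and Nlrp3 because they held a motif of NF-κB, the transcription factor that primes inflammasome genes. Each is the 250 bases before an annotated start site, 5′ to 3′ on the gene's strand, from RefSeq on GRCm38.p6, at chr17:74459109-74459358 (minus strand) for Nlrc4, chr9:5308599-5308848 (plus strand) for Casp4 and chr11:59541319-59541568 (plus strand) for Nlrp3. Capitals mark matches to the NF-κB consensus.
Nlrc4: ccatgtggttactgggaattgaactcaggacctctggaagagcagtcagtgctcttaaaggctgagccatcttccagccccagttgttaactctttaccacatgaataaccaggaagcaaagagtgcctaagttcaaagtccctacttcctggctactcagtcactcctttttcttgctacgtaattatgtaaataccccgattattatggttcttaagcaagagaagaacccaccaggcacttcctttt
Casp4: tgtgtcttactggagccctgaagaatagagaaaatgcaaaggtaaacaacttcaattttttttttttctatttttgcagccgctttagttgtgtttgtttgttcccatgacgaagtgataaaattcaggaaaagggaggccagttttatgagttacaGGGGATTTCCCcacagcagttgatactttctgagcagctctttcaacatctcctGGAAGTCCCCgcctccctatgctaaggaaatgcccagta
Nlrp3: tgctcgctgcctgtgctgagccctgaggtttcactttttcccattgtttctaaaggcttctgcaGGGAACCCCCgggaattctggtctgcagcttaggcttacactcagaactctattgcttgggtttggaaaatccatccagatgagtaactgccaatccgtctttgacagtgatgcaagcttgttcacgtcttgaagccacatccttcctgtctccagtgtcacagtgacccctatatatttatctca
Motifs were searched on both strands of windows from 250 bases before to 50 bases after the start site, of which 9 belonged to 7 of the 8 genes. No window was used for Gsdmd. Matches to the NF-κB consensus were in windows of 2 of these 7 genes, Casp4 and Nlrp3, against 9.55% of all genes and 8.46% of all 32851 windows. Both Casp4 windows, which overlap, held matches, and overlapping matches on either strand form the longer stretch. Of the 2 Nlrp3 windows, the one not shown held none. The core of the interferon-stimulated response element, GAAANNGAAA, was in 0 of the 9 windows, against 3.44% of all windows and 3.99% of all genes. The Nlrc4 window held neither set of letters. These matches describe the letters of a window, not binding, and no match says nothing about either factor.

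NLRP3 is the sensor of potassium efflux, crystals and membrane damage, and AIM2 is the sensor of cytosolic DNA. Nlrp3 had 2 probes. The brighter one had signals of 56.4 (NSD) and 50.7 (HSD) intensity units and a log2 fold change of −0.040. The dimmer one had signals of 24.3 and 22.8 units and a log2 fold change of 0.025. The probes thus differed in sign, and the brighter one moved to 0.025 after normexp correction, so no direction is given for Nlrp3. Aim2 had signals of 422 (NSD) and 443 (HSD) units and a log2 fold change of 0.19, which stayed between 0.13 and 0.19 under the other settings. Nek7 encodes a kinase that binds NLRP3 and is required for its activation. Its signals were 1063 (NSD) and 764 (HSD) units, and its log2 fold change was −0.36, a 1.29-fold lower level. It was below 0 under all 8 alternatives, from −0.43 to −0.28, and did not reach 1.5-fold under any.

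Pycard, the gene of the adaptor ASC, had signals of 1183 (NSD) and 1014 (HSD) intensity units and a log2 fold change of −0.11. Casp1, whose protease product matures IL-1β and IL-18, had signals of 3756 (NSD) and 2900 (HSD) units and a log2 fold change of −0.26. Both were slightly lower on the HSD array under all 8 alternatives, Pycard by −0.18 to −0.045 and Casp1 by −0.40 to −0.23 on the log2 scale, and neither passed 1.5-fold. Casp4 lies next to Casp1 in the genome and had 2 probes for the same transcript. One had signals of 3850 (NSD) and 3720 (HSD) units and a log2 fold change of 0.065. The other had 3172 and 3420 units and a log2 fold change of 0.22. The direction of the brighter probe changed with scaling, to −0.081 under quantile normalization, −0.037 under cyclic loess and −0.039 in the deposited log2 values, so no direction is given for Casp4.

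**Figure D2:**
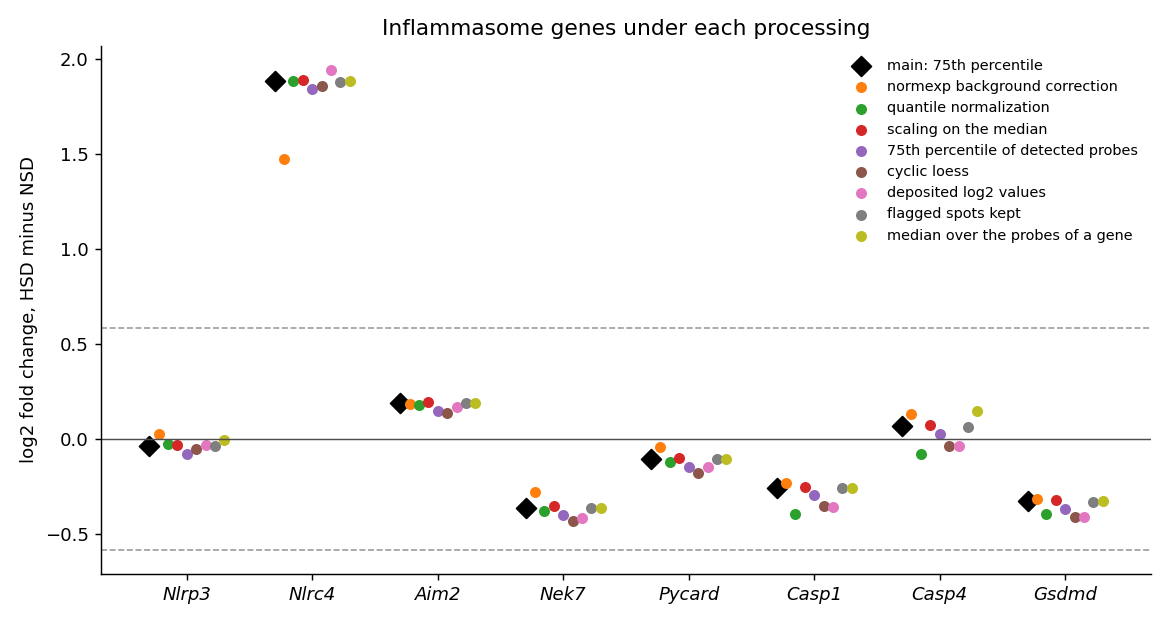
Log2 fold change (HSD minus NSD) of each inflammasome gene under the main processing (black diamonds) and 8 alternatives (coloured points). Dashed lines mark 1.5-fold in either direction. Nlrc4 lies above the upper line under every setting, from 1.47 to 1.94, and no other gene crosses a line.

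Gsdmd encodes gasdermin D, the pore-forming substrate of both caspases. Its probe was printed in 10 spots per array. The lowest, median and highest signals were 1357, 1713 and 1806 intensity units under NSD, against 912, 1272 and 1345 under HSD. Before scaling the ranges were just apart. After scaling they overlapped, since the lowest NSD spot (2.43 on the scaled log2 scale) lay below the highest HSD spot (2.53). The SD of the log2 signal between spots was 0.12 for NSD and 0.16 for HSD. The same position on the array held the lowest spot for both diets. After scaling, each of the 10 spots was lower on the HSD array, with log2 differences from −0.46 to −0.27 between spots at the same position and an SD of 0.052. The log2 fold change of the probe was −0.33, a 1.26-fold lower level, and lay between −0.41 and −0.32 under the alternatives. The difference was larger than the spread between spots at the same position, but spots of 1 pool are repeat measurements of that pool and not replicates of the diet.

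Over the 8 genes, the median log2 fold change was −0.075, with 3 genes above 0 and 5 below. This count includes Nlrp3 and Casp4, for which no direction is given. Over all 16316 genes with a usable value the median was 0.045, with 8852 genes above 0 and 7464 below. Without Nlrc4 the median of the other 7 genes was −0.11. The median over the 8 genes lay between −0.12 and −0.010 under the alternatives.

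Around these members, 5 lists of pathway genes held 62 genes, of which 57 had a usable value. Of those, 15 (26.3%) were lower under HSD by 1.5-fold or more and 6 (10.5%) were higher, with a median log2 fold change of −0.050. Over all genes, 10.3% were lower and 9.86% higher by this rule. With a 2-fold limit 7 of these 57 genes were lower and 1 of the 57 was higher, against 4.17% and 2.62% of all genes. The lists were drawn up with other results of these arrays known, so their counts are a description. All 21 genes kept their sign under the 8 alternatives, and 12 of them, 10 lower and 2 higher, were past 1.5-fold under each.

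Among other inflammasome sensors, 0 of 9 genes were higher, 3 were lower and 6 lay within 1.5-fold. Ifi204, an interferon-induced DNA sensor related to AIM2, had signals of 2642 (NSD) and 416 (HSD) intensity units, a log2 fold change of −2.55. It is counted in this list as it was drawn up, and whether its product forms an inflammasome was not examined. It was read by 1 probe, which may also bind transcripts of relatives. Nlrp1b, a sensor activated by proteases, had 527 and 295 units, a log2 fold change of −0.72. Its neighbour Nlrp1a was at 0.24, and turned to −0.093 under 1 alternative. The NAIP proteins bind bacterial ligands and hand them to NLRC4. Unlike Nlrc4, Naip5 had signals of 26397 (NSD) and 23189 (HSD) units, a log2 fold change of −0.073. Naip2 had 1359 and 1136 units, a log2 fold change of −0.14. Naip6 had 61.8 and 27.1 units, a log2 fold change of −1.07, or −0.45 after normexp. The Naip genes, like Nlrp1a and Nlrp1b, are close copies of each other, and a probe may also bind the transcript of a relative, so values of single copies are uncertain. Mefv, which encodes the sensor pyrin, had a log2 fold change of 0.20.

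Of 17 genes listed as activators and licensing factors, 3 were higher and 3 lower. Myd88, the adaptor of Toll-like and IL-1 receptors, had 10 spots per array, of which 1 NSD spot was flagged. With the flagged spot, which was the lowest, included, the lowest, median and highest signals were 2325, 2552 and 2603 intensity units under NSD and 4426, 4952 and 5160 under HSD. The ranges did not overlap before or after scaling, and the log2 fold change, without the flagged spot, was 1.06. Tlr4, the receptor of lipopolysaccharide, had a log2 fold change of 0.60 and Hdac6, a deacetylase that carries inflammasome components along microtubules, of 0.73. Tlr4 was below 1.5-fold under 3 alternatives (0.53 at the lowest) and Hdac6 after normexp (0.50). The other, dimmer Hdac6 probe had a log2 fold change of 0.55, inside the 1.5-fold limit. The lower genes were P2rx7, the ATP-gated channel that triggers NLRP3, and Irgm2 and Gbp2, interferon-induced GTPases that act on bacteria and their lipopolysaccharide. Irgm2 is counted in this list as it was drawn up, but its product may restrain rather than promote caspase-11 activation. Irgm2 had signals of 1790 (NSD) and 592 (HSD) units, a log2 fold change of −1.48. Gbp2 had 495 and 284 units, a log2 fold change of −0.69. Both belong to families of similar sequence, so their probes may also bind relatives. Gbp3, at −0.58, lay just inside the 1.5-fold limit. Gbp5, of the same family, was at −0.055, and at 0.075 after normexp. P2rx7 had 3 probes with log2 fold changes of −1.47, −0.53 and −0.26, so its probes disagreed in size. Txnip, a binding partner of NLRP3, had a log2 fold change of 0.45, below 1.5-fold.

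Of 10 inhibitors, 2 were higher and 2 lower. Irgm1, an interferon-induced GTPase, had signals of 2297 (NSD) and 727 (HSD) intensity units, a log2 fold change of −1.55, and its other probe gave −1.55 as well. Trim30a, also interferon-induced, had 2204 and 1041 units, a log2 fold change of −0.97. Serpinb1a, which encodes an inhibitor of neutrophil proteases and inflammatory caspases, had 8256 and 13663 units, a log2 fold change of 0.84. Cflar, an inhibitor of caspase-8, had 3 probes with log2 fold changes of 0.62, 0.35 and 0.15, of which only the brightest passed 1.5-fold, and it was inside that limit under 4 of the 8 alternatives.

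Of 9 genes listed as cytokine substrates and pore effectors with a usable value, 0 were higher and 3 lower. The lower genes were Il18, whose product caspase-1 matures, Il1a, whose product it does not mature, and Il1r2. Il18 had signals of 1128 (NSD) and 183 (HSD) intensity units, a log2 fold change of −2.51 that ranged from −2.63 to −2.16 under the alternatives. Il1b, which encodes the other cytokine matured by caspase-1, was measured in 10 spots. The lowest, median and highest signals were 14843, 15306 and 16624 units under NSD and 15987, 18019 and 19361 under HSD. These ranges overlapped before scaling. After scaling they did not, with NSD spots from 5.88 to 6.04 and HSD spots from 6.10 to 6.38 on the scaled log2 scale. Each of the 10 HSD spots was higher than the NSD spot at the same position, by 0.17 to 0.40, and the log2 fold change of the probe was 0.33. The genes of the cytokines that caspase-1 matures thus had values of opposite sign, with Il1b below 1.5-fold. Il1a had 33.2 and 16.3 units, a log2 fold change of −0.91, or −0.18 after normexp. Il1r2, the decoy receptor of IL-1, had 892 and 488 units, a log2 fold change of −0.75. Gsdme, another gasdermin, had a log2 fold change of 0.37 and Ninj1, which ruptures the membrane after pore formation, of 0.47, both below 1.5-fold.

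**Figure D3:**
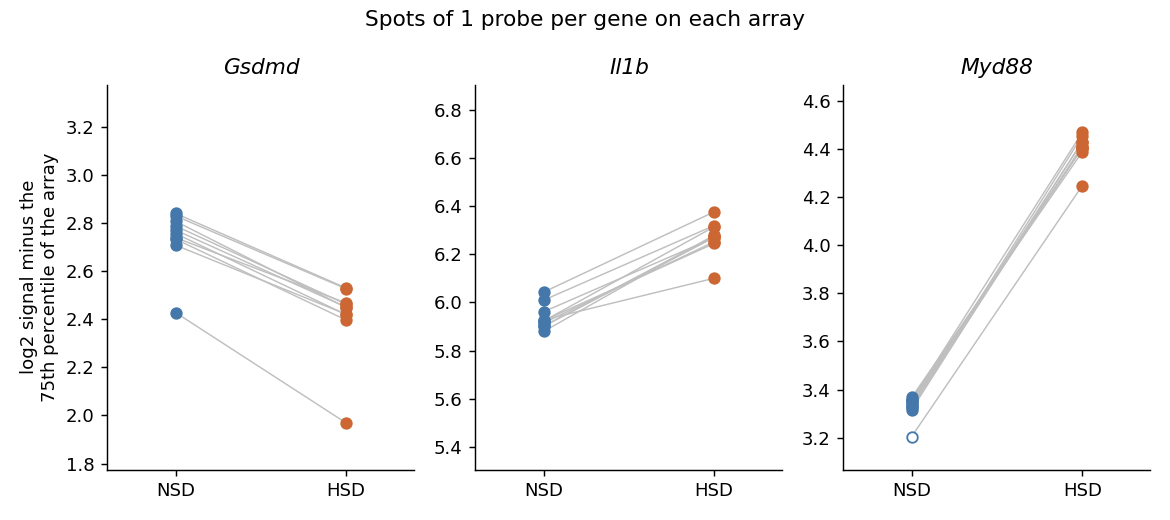
Log2 signal minus the 75th percentile of the array for the 10 spots of the Gsdmd, Il1b and Myd88 probes, with lines joining spots at the same position on the NSD and HSD arrays. An open point is a spot flagged as an outlier by the scanner software. All spots of Gsdmd were lower on the HSD array, and all spots of Il1b and Myd88 were higher.

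Of 12 genes of apoptotic caspases and related death pathways, 1 was higher and 4 lower. Zbp1, an interferon-induced sensor of Z-form nucleic acids, had 2 probes with log2 fold changes of −2.86 and −2.96, and the brighter had signals of 396 (NSD) and 50.4 (HSD) intensity units. Mlkl, which executes necroptosis, had 56.2 and 27.5 units, a log2 fold change of −0.92, or −0.29 after normexp. Casp8, the initiator caspase that can also cleave gasdermin D, had signals of 310 (NSD) and 190.5 (HSD) units and a log2 fold change of −0.59, at the 1.5-fold limit and inside it under 3 alternatives. Ripk1 had a log2 fold change of 0.60, also close to the limit and inside it under 3 alternatives.

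**Figure D4:**
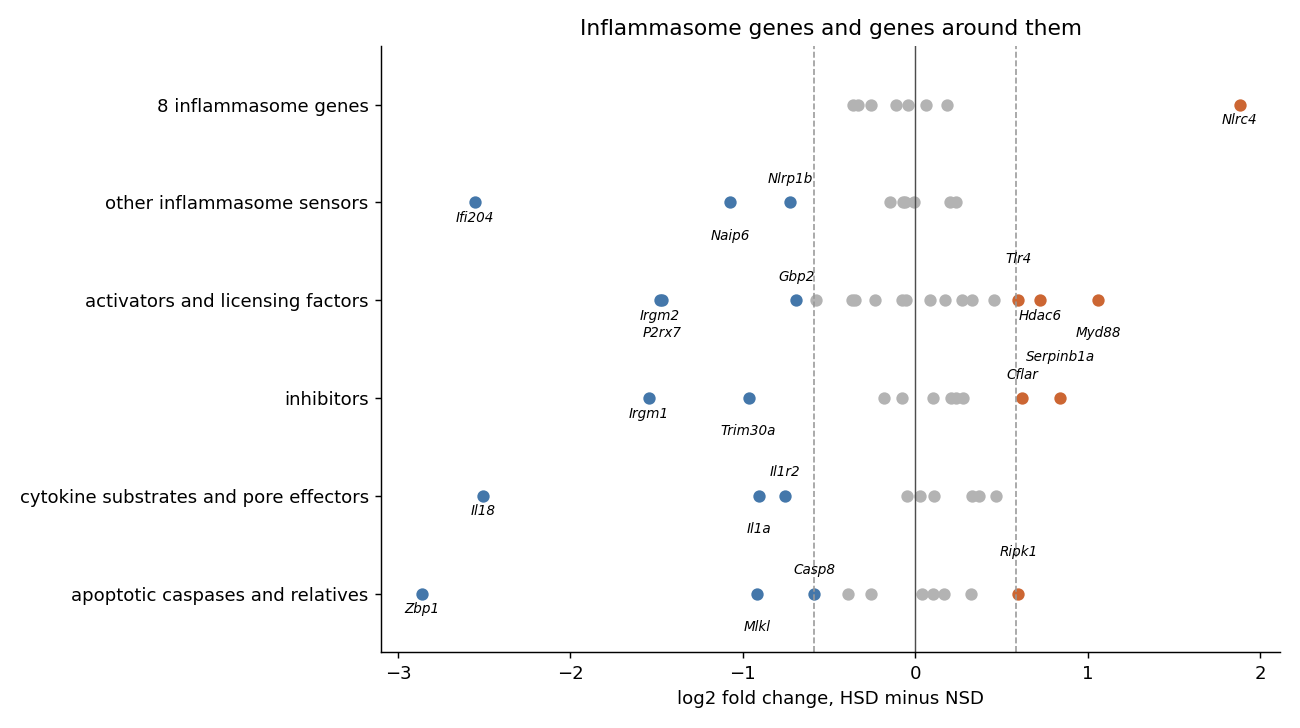
Log2 fold change (HSD minus NSD) of the 8 inflammasome genes and of the genes in 5 pathway lists, one point per gene with a usable value that is reported here. Orange and blue points are at least 1.5-fold higher and lower, dashed lines mark 1.5-fold, and labels name genes past these lines. Nlrc4 stands apart from the other members, and the lowest values are those of Zbp1, Ifi204 and Il18.

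Markers of other cells were read on the same arrays, where 71.9% (NSD) and 72.4% (HSD) of probes were well above background. Of 9 macrophage markers with a usable value, 7 were lower under HSD by 1.5-fold or more, and their summed signal was 19040 (NSD) and 9571 (HSD) intensity units. The genes of the C1q complex differed in direction. C1qa was dim, at 12.2 units under NSD and not well above background under HSD, C1qc had 52.6 and 5.28 units, and C1qb had 50.4 and 58.4 units, a log2 fold change of 0.33. The 7 markers were lower in the same pool as Il18, P2rx7, Ifi204 and Zbp1, while Nlrc4 was higher, and their part in those differences was not tested. Of 9 neutrophil markers, 0 were higher and 1 (Mpo) was lower, with summed signals of 259835 and 247224 units. S100a8 and Camp, genes of neutrophil granules and cytosol, had signals of 57914 and 61817 units under NSD and 56478 and 59919 under HSD, in cells labelled as monocytic. Of 9 monocyte markers, 3 were higher and 1 was lower, with summed signals of 100633 and 106562 units. Of 6 epithelial markers, which 4T1 cells may express, 3 were higher by 1.5-fold or more and 0 lower, all dim, with a median log2 fold change of 0.39. Epcam had 14.5 and 21.8 units, Krt8 8.68 and 12.2, and Krt18 15.9 and 25.0, while the sum over the list, in which Cdh1 weighs most, was 128 and 131 units. The part of these markers in the differences above was not tested. Of 4 fibroblast markers, 0 were higher and 2 lower, with summed signals of 140 and 106 units. Of 8 T and NK cell markers 0 were higher and 1 lower (summed signals 2544 and 3003 units), and of 6 B cell markers 1 was higher and 0 lower (7336 and 9300 units). All 6 B cell markers had values above 0, with a median log2 fold change of 0.47. Their part in the differences above was not tested either. Of 8 dendritic cell markers 2 were higher and 1 lower (23386 and 23093 units). Of 4 endothelial markers 0 passed the limit (261 and 283 units), and of 4 erythroid markers 0 were higher and 1 lower (11094 and 11423 units).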

How the data were processed

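RNA of 2 pools of tumour M-MDSCs, 1 per diet, was labelled with Cy3 and measured on Agilent mouse arrays. The authors deposited the scanner output of Agilent Feature Extraction 11.0.1.1, whose processed signal is an intensity corrected for background and spatial trends, and a table of log2 values they had normalized. The columns of that table, when sorted, differ by at most 0.052 and have a median of 4.61 each, as after quantile normalization. It was used as an alternative.

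Control spots and outlier spots (162 NSD, 179 HSD) were left out, log2 signals were averaged per probe, and the 75th percentile of each array (252 and 233 intensity units) was subtracted. A probe was used when at least 50% of its spots were well above background on at least 1 array. A probe that was dim for 1 diet gave only a bound on its fold change, set at the lowest signal above background or its own if brighter. Genes with several probes were represented by the brightest, by mean log2 signal. Probes were named by RefSeq transcripts on GRCm38.p6 (69.1% matched). Genes without a matched probe (Nlrp6, Card8, Il36g, and the markers Ly6c2, Ly6g, Cd68 and Hbb-b1) were not analysed here, and Nlrp9b and Il33 were not well above background. The array's annotation is on an earlier assembly, so the only coordinates given are those of the promoter windows.

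All members and the pathway genes past 1.5-fold were named, plus Il1b, Il18, Il1a, Casp8, Naip2, Naip5, Txnip and Gsdme whatever their change. Some genes that this rule names are counted in their list but not reported here. Nlrp1a, Mefv, Ninj1, Gbp3 and Gbp5 were added after their values were seen. Members and lists were chosen with earlier results of these data known. With 1 array per group no test was run, precision is limited by the number of arrays, and any batch of hybridisation cannot be told apart from the diet. The counting was tested on simulated data. Alternatives were normexp on the median signal with an offset of 50, quantile normalization, other scalings, cyclic loess, the deposited values, flagged spots, filters, a 2-fold limit and the median over probes. Software was R 4.3.3, limma 3.58.1, Python 3.11.15, pandas 2.3.3, numpy 2.4.6 and, for plots, matplotlib 3.10.9.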

Additional observations from a re-analysis of the deposited data

How the results depend on the processing

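The member probes past the limit upward (1) and downward (0) were as many under all 10 alternatives tried, a 2-fold limit included. The filters on dim probes could not change this count, since every member probe was detected for both diets. The log2 fold change of Nlrc4 was 1.47 after normexp correction, which adds an offset of 50 to both arrays, and between 1.84 and 1.94 under the other 7. For any gene with 1 probe, the median over probes could change nothing. The other scalings shift all genes alike. For the pathway lists, the number of higher genes was 3 when the arrays were scaled on the 75th percentile of detected probes, 3 under cyclic loess and 1 with a 2-fold limit, against 6. The number of lower genes was 7 with a 2-fold limit, against 15. The cause of the changes with scaling was not tested, and the median of all genes was 0.0046 and −0.023 under those scalings, against 0.045. The dim probes of Naip6, Il1a and Mlkl lay inside 1.5-fold after normexp (−0.45, −0.18 and −0.29). No paired analysis was possible because each group has 1 array, and for the same reason no array could be left out.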
